A study of Mus musculus with 67 samples.

Results

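The 9 genes described here, taken as markers of macrophages at the borders of the brain, were followed through 67 RNA sequencing libraries of mouse brain. They are Pf4, Mrc1, Cd163, Folr2, Lyve1, Cbr2, Ms4a7, F13a1 and Stab1. On sorting, Stab1 went with the microglia markers rather than with the rest of the list, as given below. The genes were chosen by symbol, not by a rule on measured values, though earlier results of these data were known. Each count table held all 9, among 24411 genes in the driver and digest experiments and 24421 in the LPS experiment. All 9 passed the filter on low counts in each experiment, which a gene could pass through the pull-down libraries alone.

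Border macrophages sit in the perivascular space, the meninges and the choroid plexus, next to blood vessels and cerebrospinal fluid, whereas microglia lie within the brain tissue. Both cell types express the chemokine receptor Cx3cr1, so a Cre recombinase driven from that locus can act in both. Border macrophages take up debris and soluble proteins from the fluid around vessels, and many of their markers are uptake receptors. They usually carry more CD45 on their surface than microglia, and sorting gates for microglia ask for an intermediate CD45 level.

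The series compared RNA pulled down on HA-tagged ribosomes (RiboTag) from whole brain with RNA of sorted cells, in C57BL/6J mice that all carried the RLP22HA/HA allele, which puts an HA tag on a ribosomal protein in cells where Cre has acted. Each library counts as 1 replicate. The design text speaks of separate mice and of at least 3 per experiment, though the groups without tamoxifen held 2 libraries each. It also says that a mouse gave both sorted cells and pull-down, so libraries of different preparations are not all from different mice. In the LPS experiment the titles carry a running number, 1 to 3 for PBS and 4 to 7 for LPS mice, through every preparation. Tissue age was not given in the sources used here.

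The driver experiment (24 libraries) used a pull-down with anti-HA, a control pull-down with IgG1 and the input homogenate, from 3 kinds of mice. These were CX3CR1CreER/WT RLP22HA/HA given tamoxifen (3 libraries of each kind), CX3CR1CreER/WT RLP22HA/HA not given tamoxifen (2 of each kind), and CX3CR1Cre/WT RLP22HA/HA, whose Cre needs no tamoxifen (3 of each kind). The digest and LPS experiments used CX3CR1CreER/WT RLP22HA/HA mice that had all received tamoxifen, which was given by gavage as 5 mg in corn oil, 4 times every other day at 4 to 6 weeks of age. The digest experiment (15 libraries) held pull-down (3), IgG1 (4), cells sorted after Collagenase D and DNase1 treatment for 20 min at 37 °C (4) and cells sorted without that enzymatic digest (4). In the LPS experiment (28 libraries), mice got PBS or 2.5 mg/kg of lipopolysaccharide (LPS), a bacterial cell wall component, and were taken after 3 h. Each treatment had pull-down, IgG1, sorted cells and pull-down from cells that had first been sorted, with 3 PBS and 4 LPS libraries of each. Sorted cells were GR1 negative, CD45 intermediate and CD11b positive.

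All libraries are labelled as microglia, the inputs and IgG1 controls included. The summed level of 23 microglia markers ran from 83879 to 108240 CPM (counts scaled to a common library size) in the driver pull-downs with tamoxifen and from 2138 to 2400 in their inputs, so the inputs held whole brain RNA rather than that of microglia. Total counts ran from 186099 to 2084562 in the driver experiment, from 685218 to 1843618 in the digest experiment and from 166851 to 3513317 in the LPS experiment. The shallowest libraries were the pull-downs without tamoxifen and those from sorted cells, where a single read of a gene is worth several CPM.

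The first comparison asked whether the inducible driver after tamoxifen tagged the cells that express these genes. In pull-down all 9 exceeded input, by log2 differences from 3.94 to 6.83 with a median of 5.55. No pull-down library overlapped an input library for any of them. Overlap was looked at for the 9 genes only, not for all genes tested, here and in later comparisons. Of all 11868 genes tested, 28.7% were called higher (35.5% lower), that is, passed the edgeR quasi-likelihood test at a Benjamini-Hochberg adjusted p under 0.05, and the median over all genes was -0.28. All 22 microglia markers tested were higher too (median 5.80).

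Among the receptors, Stab1, which encodes the scavenger receptor stabilin-1, stood at 515, 482 and 420 CPM in the pull-downs and at 2.80, 6.71 and 3.12 in the inputs, a log2 difference of 6.83 ± 0.37 (SE, adjusted p = 6.61e-17). Cd163, the receptor that clears haemoglobin bound to haptoglobin, had 127, 125 and 129 CPM against 2.10, 0.745 and 0.892 (6.60 ± 0.41). These libraries of Cd163 lay within a few CPM of each other in the pull-down. Mrc1, the mannose receptor, was low, with 18, 22.3 and 18.5 CPM against 0, 1.49 and 0.892 (4.44 ± 0.66, adjusted p = 3.89e-07). Lyve1, a receptor for hyaluronan that lymphatic vessels also carry, had 24.4, 19.3 and 17.4 CPM against 1.40, 1.49 and 0.892 (3.96 ± 0.55, adjusted p = 1.48e-07). Folr2, the folate receptor of macrophages, had 120 reads over the pull-downs and 2 over the inputs, 127 times as many per read of depth (95% interval 34.3 to 1059, counting error only).

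The secreted factor, the enzymes and the remaining membrane protein did the same. Pf4, a chemokine first known from platelets, stood at 455, 547 and 396 CPM in pull-down and at 7.71, 11.9 and 4.46 in input (log2 5.92 ± 0.32, adjusted p = 1.87e-17). Cbr2, a carbonyl reductase, had 176, 180 and 134 CPM against 3.50, 2.24 and 4.02 (5.55 ± 0.45). F13a1, the catalytic subunit of the clotting factor that cross-links fibrin, had 83.5, 92.2 and 104 CPM against 2.80, 0 and 4.02 (5.14 ± 0.43). Ms4a7, a membrane-spanning protein of the MS4A family, was the smallest difference at 14.1, 22.3 and 15.2 CPM against 0.701, 2.24 and 0.446 (3.94 ± 0.67). Pf4 and Stab1 were thus the members with most reads in pull-down, and Mrc1, Ms4a7 and Lyve1 those with fewest, a count that also depends on transcript length.

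The IgG1 control held little of these transcripts. All 9 were higher in pull-down than in IgG1 (30.8% of all genes tested were called higher), with no overlap between libraries. Mrc1 had the smallest difference, 2.50 ± 0.56, and IgG1 held 2.25, 4.84 and 3.01 CPM of it. Lyve1, with 48 reads in pull-down and none in IgG1, was at least 24.1-fold higher. Between IgG1 and input, Lyve1 was the one member called, lower in IgG1 with 0 reads against 6 (18.4% of genes tested were called lower), and that call was lost without the filter on low counts and with DESeq2. In the digest experiment all 9 were again higher in pull-down than in IgG1 (26.7% of genes), by 3.62 ± 0.37 for Mrc1 to 6.34 ± 0.27 for Pf4 among the genes with more than 3 IgG1 reads. The same 9 of 9 held over IgG1 in the LPS experiment, for PBS (33.0% of genes) and for LPS (37.6%).

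Pf4 is also a gene of platelets and their precursors, and Lyve1 one of lymphatic vessels. Of 10 platelet genes, Gp1ba and Gp6 had 0 reads in all 67 libraries, Ppbp had 1 and Clec1b 21, and the 13 pull-downs with tamoxifen, in all 3 experiments, held 0, 0, 1 and 3 of these. Other genes of the list went both ways. Of the 4 that could be tested in the driver experiment, 2 were higher in the tamoxifen pull-down and 1 was lower. Gp9, a subunit of the platelet receptor for von Willebrand factor, had 509 reads there and 13 in input (log2 6.32 ± 0.40, adjusted p = 1.94e-16). Itgb3, an integrin chain that platelets and other cells carry, had 287 and 14 (5.40 ± 0.38, adjusted p = 4.21e-15). Gp1bb, another subunit of that receptor, was lower by -1.09 ± 0.17 and held most of the summed platelet level, which was 1029 to 1157 CPM in those pull-downs and 1446 to 1798 in their inputs. Over all libraries, 3335 of 6222 Gp9 reads and 1599 of 2989 Itgb3 reads lay in the pull-downs with tamoxifen. Sorted cells held many of the others. Those of the digest experiment had 716 Gp9 and 270 Itgb3 reads with digest, and 745 and 308 without. The 5 lymphatic vessel genes summed to 2.97 to 8.99 CPM in the driver pull-downs with tamoxifen and to 26.1 to 32.6 in the inputs. Of these, 2 could be tested, Reln, which neurons also express, and Pdpn, and both were lower in pull-down (-2.50 ± 0.42 and -3.43 ± 1.16). The part of platelets and lymphatic vessels in the levels of Pf4 and Lyve1 was not tested.

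**Figure D1:**
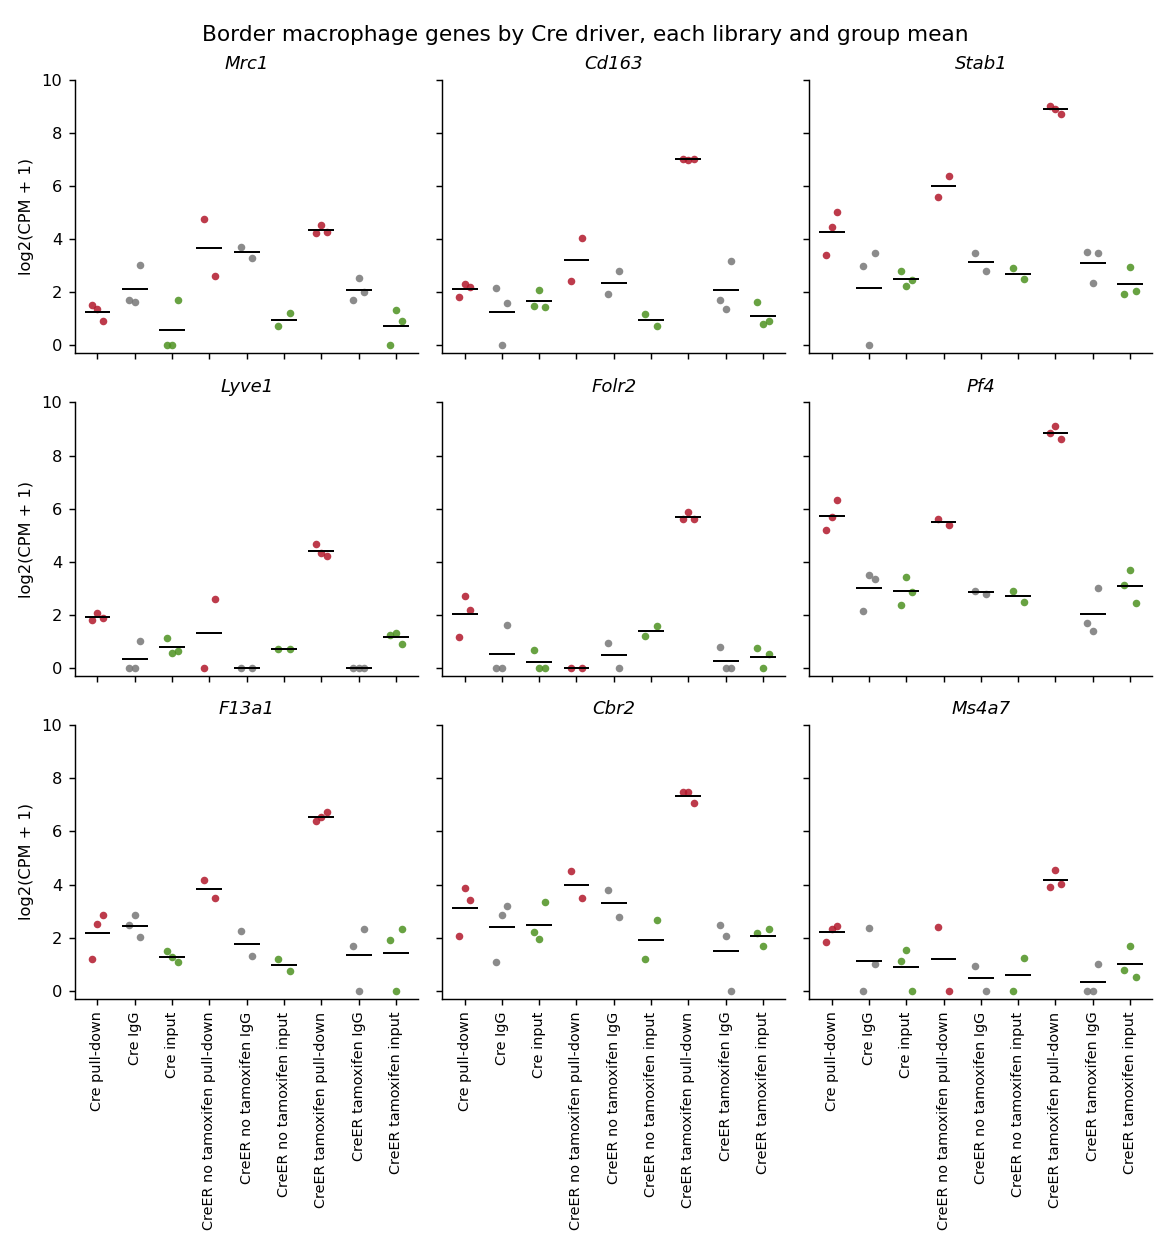
Level of each of the 9 genes in the driver experiment, as log2(CPM + 1) on the vertical axis, with 1 point per library and a black line at the mean of each group. Groups are pull-down, IgG1 and input for the constitutive Cre, CreER with tamoxifen and CreER without tamoxifen, and for all 9 genes the pull-downs with tamoxifen lie above every input and IgG1 library of the same mice.

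The constitutive driver gave a much smaller enrichment. In CX3CR1Cre mice 3 of 9 exceeded input in the pull-down (18.1% of all genes were called higher). Pf4 stood at 36.0, 50.9 and 78.5 CPM against 4.18, 9.86 and 6.26 in input (log2 2.95 ± 0.33, adjusted p = 5.93e-08). Stab1 had 9.47, 20.7 and 31.2 CPM against 5.98, 3.76 and 4.55 (2.05 ± 0.42, adjusted p = 0.000286). Folr2 had 13 reads against 1, a ratio of 18.3 (95% interval 2.74 to 775). Each of these 3 was above input in all libraries. The other 6 had log2 differences from 0.48 (Cd163) to 1.80 (Lyve1) that did not pass. Over IgG1, Pf4 (2.87 ± 0.40) and Stab1 (1.54 ± 0.48, adjusted p = 0.0102) were higher (20.5% of genes), and the Stab1 call was lost without the third pull-down (adjusted p = 0.0793) and when only the compared groups were fitted (0.0744).

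Set directly against the inducible driver, the constitutive pull-down was lower for 9 of 9 (25.6% of all genes were lower), with a median of -3.89, against 0.20 for all genes. The log2 differences were -5.23 ± 0.37 for Cd163, -4.57 ± 0.31 for Stab1, -4.57 ± 0.42 for F13a1, -4.24 ± 0.41 for Cbr2, -3.60 ± 0.63 for Mrc1, -3.09 ± 0.26 for Pf4, -2.82 ± 0.50 for Lyve1 and -2.22 ± 0.57 for Ms4a7. Folr2, the remaining gene, had 13 reads (1.26 to 5.57 CPM) with the constitutive driver against 120 (47.5 to 58.0 CPM). No library of one driver overlapped the other for any member. All 22 microglia markers were lower as well (median -4.12), so the 9 genes lay close to the microglia markers in this comparison. The summed microglia level was 4317 to 8223 CPM in the constitutive pull-downs, and the 8 neuron markers, which were all higher, summed to 4926 to 6355 CPM there against 1219 to 1487 with the inducible driver. In bulk RNA, fewer tagged cells of a type, less RNA per cell and a larger share of other RNA cannot be told apart. One constitutive pull-down, the first, also had 231 CPM of endothelial genes against 19.9 and 26.8 in the others. The part of these other cell types in the result was not tested.

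Between the inputs of both drivers no difference was called. No member was called between the inputs by edgeR (0.00% of all genes were), none had an unadjusted p under 0.05, and DESeq2 called 0. The enrichment over input differed between the drivers for 6 of 9, lower with the constitutive one (19.7% of genes): Cd163 by -6.12 ± 0.81, Cbr2 by -4.82 ± 0.74, Stab1 by -4.78 ± 0.63, F13a1 by -3.79 ± 0.96, Mrc1 by -3.48 ± 1.39 and Pf4 by -2.97 ± 0.50. Mrc1 was the least firm of these (adjusted p = 0.0404), and it moved to -0.71 without the third constitutive input, the sole one of these inputs with any Mrc1 read. Folr2, Lyve1 and Ms4a7 did not pass.

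Without tamoxifen the inducible driver still gave a signal, from few reads. The median log2 difference of the 9 genes over input was 2.97, against 1.64 with the constitutive driver and 5.55 with tamoxifen. The constitutive driver and the inducible one without tamoxifen were not compared by a test. The 2 pull-downs held 39 and 33 reads of the 9 genes together in totals of 219521 and 186099. Stab1 stood at 47.4 and 82.2 CPM against 6.46 and 4.65 in input (3.49 ± 0.58, adjusted p = 6.2e-05), and Pf4 at 47.4 and 41.1 CPM against 6.46 and 4.65 (2.97 ± 0.60, adjusted p = 0.000726). F13a1 had 6 reads against 3, a ratio of 14.3 (95% interval 3.06 to 88.4), and Mrc1 had 7 against 3, a ratio of 16.7 (3.81 to 100.1). These were the 4 members called of 9 (6.44% of genes), and the count fell to between 1 and 3 when a single library was left out. Over IgG1, Pf4 and Stab1 alone passed (5.01% of genes). Mrc1 stood at 8.84 and 12.1 CPM in that IgG1, between its pull-down values of 5.14 and 25.8.

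Against the pull-down with tamoxifen, 7 of 9 were lower without it (18.3% of genes). Pf4 was lower by -3.38 ± 0.40 and Stab1 by -2.89 ± 0.39, Folr2, at 0 reads against 120, was at least 7.2-fold lower, and Mrc1 had a log2 difference of -0.26 ± 0.72 with overlapping libraries. Mrc1 stood at 25.8 and 5.14 CPM in the pull-downs without tamoxifen, one of them above all 3 libraries with it, from 7 reads in total. The enrichment over input was lower without tamoxifen for Cbr2 (-3.27), Folr2, Pf4 (-2.94) and Stab1 (-3.34), 4 of 9 where 12.6% of genes were lower. For Folr2 the pull-down had no read, so its fitted value of -10.69 is no measure of size.

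**Figure D2:**
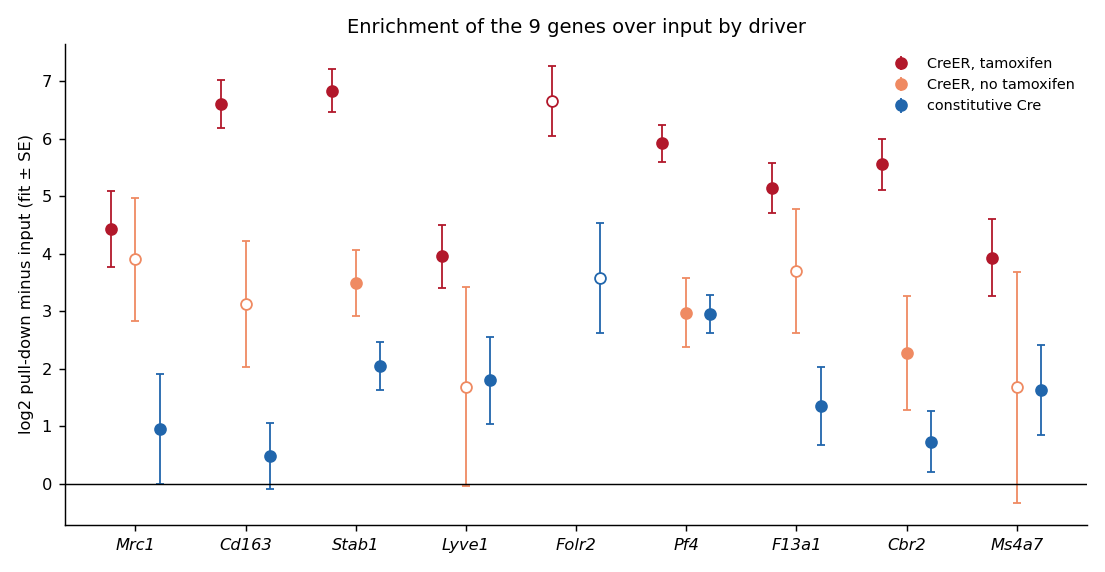
Log2 difference of pull-down minus input on the vertical axis for the 9 genes and the 3 kinds of driver mice, with the fitted value and its standard error. Open symbols mark genes with 3 or fewer reads in a group and Folr2 without tamoxifen, at 0 reads in pull-down, is left out; the CreER values with tamoxifen, from 3.94 to 6.83, lie above those of the constitutive Cre for every gene.

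The next question was what happened to these transcripts when cells were sorted instead. After digest and sorting, 8 of 9 were lower than in whole brain pull-down (41.1% of all genes tested were lower), with a median of -6.22 against -0.18 for all genes, and the sorted libraries lay below the pull-downs for each of the 8. The exception was Stab1. The microglia markers, in the same comparison, went both ways, 13 of 23 higher (31.6% of all genes were) and 4 lower (median 0.42), and their summed level was 72118 to 79503 CPM in pull-down and 78573 to 87219 in sorted cells.

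Pf4 showed the drop in full: 441, 388 and 510 CPM in pull-down, then 6.43, 0, 0 and 0.953 in cells sorted after digest (log2 -8.10 ± 0.33, adjusted p = 2.17e-18). In cells sorted with no digest it stood at 5.12, 7.51, 6.19 and 4.22 CPM (-6.24 ± 0.27). F13a1 had 455 reads in pull-down, at 100, 94.5 and 109 CPM, none in cells sorted after digest and 2 in cells sorted without it. It was at least 156-fold lower with digest and lower by a ratio of 252 (95% interval 69.4 to 2089) without. Cbr2 fell from 203, 187 and 165 CPM to 7.5, 0, 1.74 and 2.86 with digest (-6.09 ± 0.33) and 0.853, 3.76, 3.09 and 6.75 without (-5.64 ± 0.31).

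The receptors followed, except one. Cd163 stood at 76.6, 88.3 and 69.6 CPM in pull-down, at 2.70 CPM in 1 of the 4 libraries sorted after digest and 0 in the others, and at 0, 0, 2.32 and 3.38 CPM without digest (-6.35 ± 0.45 and -5.70 ± 0.41). Folr2 had 84.9, 73.4 and 66.4 CPM in pull-down and at most 3.38 in any sorted library (-5.54 ± 0.33 and -4.90 ± 0.30). Sorted libraries kept a trace of Folr2 in each of the 8, from 0.868 CPM up. Mrc1 fell least, from 44.7, 35.5 and 25.5 CPM to between 1.07 and 5.91 in sorted cells (-3.40 ± 0.37 with digest, -2.96 ± 0.34 without). Lyve1 had 126 reads in pull-down against 1 after digest, a ratio of 129 (22.8 to 5151), and was lower by -4.99 ± 0.56 without digest. Its pull-down libraries differed most among themselves, at 47.8, 23.0 and 16.6 CPM. Ms4a7 had 106 reads against 1 after digest, a ratio of 109 (19.1 to 4340), and was lower by -4.70 ± 0.52 without it.

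Stab1 stood apart from the other 8. It had 276, 269 and 304 CPM in pull-down, 248, 313, 274 and 289 in cells sorted after digest and 285, 297, 298 and 322 in cells sorted without. The log2 differences from pull-down were -0.01 ± 0.14 (adjusted p = 0.958) and 0.08 ± 0.14 (adjusted p = 0.588), with overlapping libraries, though the second was called at 0.29 with total-count scaling. In the sorted cells Stab1 held most of the summed level of the 9 genes, which was 266 to 322 CPM after digest. Its level in the CD45 intermediate gate thus overlapped that in pull-down, and those of the other 8 genes did not. Without digest, 8 of 9 were lower too (40.9% of genes), with a median of -4.99.

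**Figure D3:**
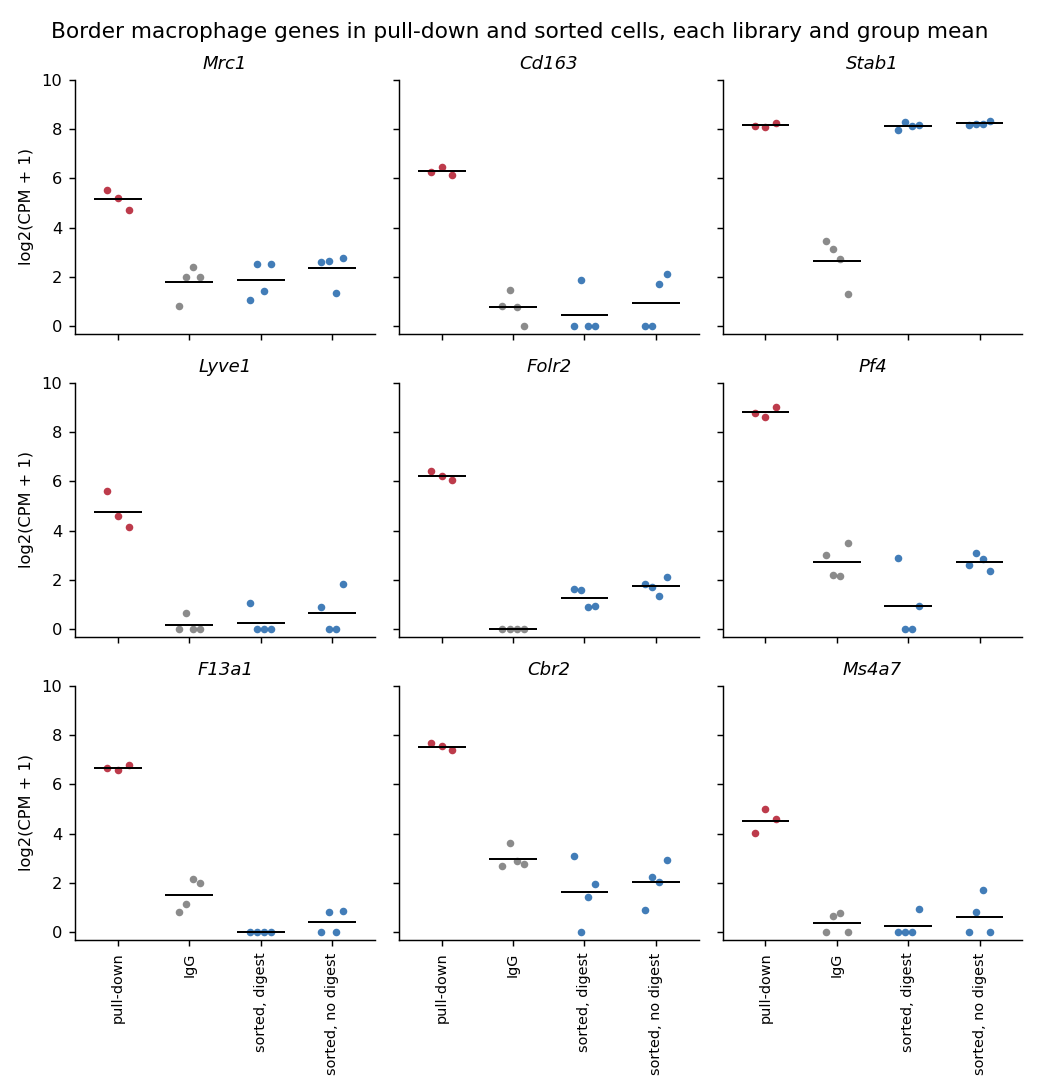
Level of the 9 genes in the digest experiment as log2(CPM + 1) on the vertical axis, 1 point per library and a black line at each group mean, for pull-down, IgG1, cells sorted after digest and cells sorted without digest. Stab1 sits at the same height in pull-down and both sorted groups, while the other 8 genes drop to the level of the IgG1 libraries or near it.

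Whether the enzymatic digest itself mattered was read from the sorted groups alone. No member was called between digest and no digest by edgeR, 1 had an unadjusted p under 0.05, and DESeq2 called 0. Only 16 of all genes tested, 0.139%, were called. All 9 fitted differences were negative, among them -0.09 ± 0.13 for Stab1, -0.44 ± 0.51 for Mrc1, -0.45 ± 0.62 for Cbr2 and -0.64 ± 0.60 for Folr2. F13a1, with 0 and 2 reads, allows no fold. The 1 at an unadjusted p under 0.05 was Pf4, with a difference of -1.86 ± 0.64 (edgeR, adjusted p = 0.734). Of its 7 reads after digest, 6 came from 1 library, and without that library, with 1 read left, Pf4 was called (fitted difference -4.01, adjusted p = 0.011). For the other 7 genes that fell on sorting, a difference between digest and no digest was not detectable at this depth.

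Early response genes that rise during tissue dissociation moved with the sorting. Their 11 genes summed to 718 to 814 CPM in pull-down, to 21277 to 24844 after digest and to 14645 to 21890 without. All 11 were higher after digest (31.6% of all genes were) and 10 without (31.9%). Genes of neurons summed to 929 to 1069 CPM in pull-down and to 2.86 to 12.7 in sorted cells. The platelet list summed to 596 to 709 CPM in pull-down and to 217 to 255 in sorted cells, and its genes went both ways. With digest Gp1bb fell from 1625 reads to 9 (-7.45 ± 0.27), Gp9 and Itgb3 were each lower by -0.49, and Treml1 was higher with 75 reads against 1. Of 5 antigen presentation and dendritic cell genes tested, 4 were lower with digest (41.1% of all genes were): Cd74, H2-Aa, H2-Ab1 and H2-Eb1. The integrin gene Itgax was higher, by 0.91 ± 0.28 (31.6% of all genes were higher). The part of these in the loss of the 8 genes was not tested. Between these groups of the digest experiment, the gate, the fresh preparation and the kind of RNA (total or ribosome-bound) changed together and cannot be told apart. The LPS experiment, below, also held pull-down from sorted cells, ribosome-bound like the whole brain pull-down.

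**Figure D4:**
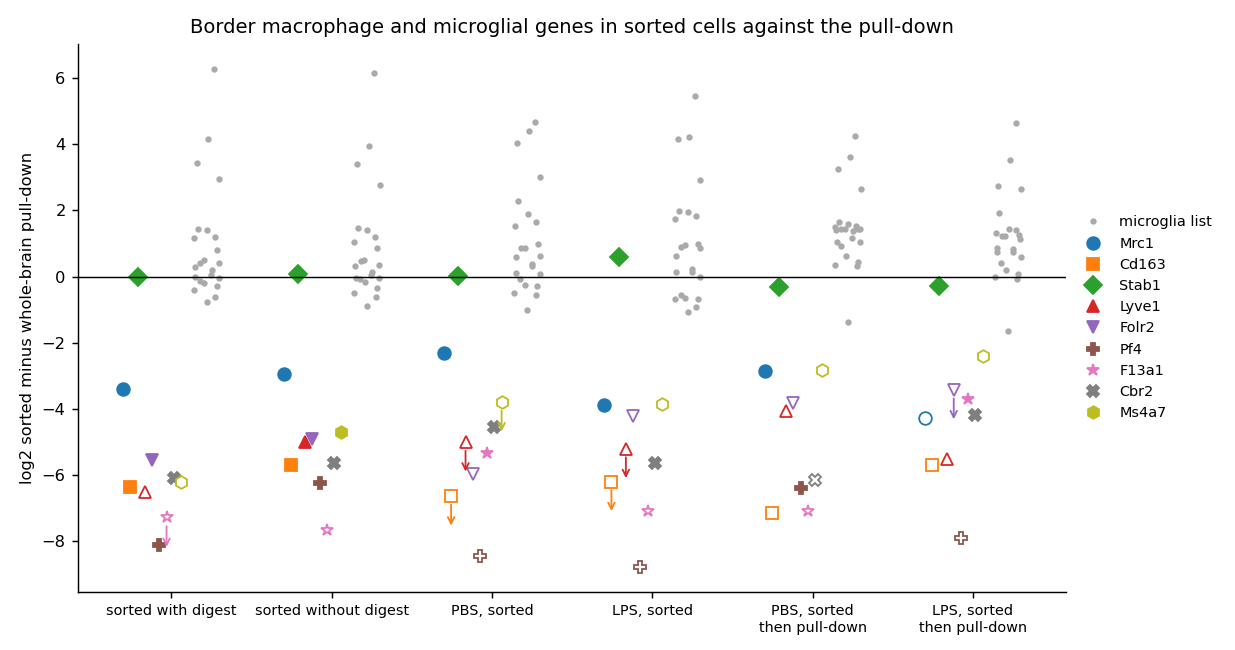
Fitted log2 difference from whole brain pull-down on the vertical axis for the 9 genes, in cells sorted after digest, sorted without digest, and sorted or sorted then pulled down in PBS and LPS mice (horizontal axis); grey dots are single microglia markers. Open symbols mark genes with 3 or fewer reads and arrows genes with 0 reads, drawn at their lower bound, and Stab1 lies near 0 among the microglia markers while the other 8 lie at -2.32 or below.

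The LPS experiment gave the same comparison in separate libraries. In PBS mice 8 of 9 were lower in sorted cells than in pull-down (38.7% of genes), with a median of -5.96, or -5.00 with the 3 genes at 0 reads set at their bound. Sorted cells gave 0 reads of Cd163 against 497 in pull-down, which is at least 99.7-fold lower. Lyve1, at 0 against 160, was at least 32.1-fold lower, and Ms4a7, at 0 against 69, at least 13.8-fold lower. Pf4 had 2 reads against 1346, a ratio of 405 (112 to 3347), and Folr2 1 against 136, a ratio of 81.8 (14.4 to 3255). F13a1 was lower by -5.32 ± 0.42, Cbr2 by -4.55 ± 0.36 and Mrc1, at 7.33, 15.2 and 7.01 CPM in sorted cells, by -2.32 ± 0.39. Stab1 had a difference of 0.02 ± 0.19 (365, 307 and 457 CPM sorted, 399, 372 and 340 in pull-down), which became -0.47 (adjusted p = 0.0197) without the filter on low counts. Early response genes summed to 3667 to 4012 CPM in these sorted cells and 602 to 692 in pull-down.

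In LPS mice the same 8 were lower (43.0% of genes), with a median of -5.62, or -5.20 with bounds, and Stab1 was higher by 0.58 ± 0.17 (adjusted p = 0.00148, 33.1% of genes higher), but the difference was 0.02 without the filter. Cd163, at 0 reads against 535, was at least 73.5-fold lower, Pf4 had 2 against 2571, a ratio of 530 (147 to 4379), and F13a1 1 against 472, a ratio of 195 (34.8 to 7703). Pull-down from sorted cells gave 8 of 9 lower than whole brain pull-down in PBS (29.0%) and in LPS mice (33.4%), and Stab1 at -0.31 and -0.30 did not pass. Against sorted cells, the pull-down from sorted cells called no member in PBS mice by edgeR (31.9% of genes in either direction), with 2 at an unadjusted p under 0.05 and 0 by DESeq2. With the mouse number as a block, Stab1 was called there, at -0.32 (adjusted p = 0.018). In LPS mice it had Stab1 lower by -0.88 ± 0.19 (16.7% of genes lower) and F13a1 higher with 7 reads against 1, a ratio of 14.0 (1.80 to 630, 15.2% of genes higher). With that block Stab1 alone could be tested, and it was called.

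In whole brain pull-down, 8 of the 9 genes had a negative log2 difference after LPS and 1 a positive one. F13a1, Stab1 and Cd163, 3 of the 9, were lower after 3 h (11.0% of all genes were lower), none was higher, and the median over the 9 was -0.50 against -0.03 for all genes. Of 23 microglia markers 11 were lower and 1 higher (median -0.41). F13a1 fell from 108, 110 and 132 CPM in PBS mice to 80.4, 62.1, 52.3 and 55.1 in LPS mice, with no overlap (log2 -0.87 ± 0.21, adjusted p = 0.000956). Stab1 fell from 399, 372 and 340 CPM to 294, 263, 187 and 173, again without overlap (-0.68 ± 0.18, adjusted p = 0.00185). Both calls were kept in all 7 fits that left out 1 library.

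Cd163 was less firm. It had 101, 72.9 and 189.5 CPM in PBS mice and 72.8, 86.3, 59.1 and 95.1 in LPS mice, so the groups overlapped, and the difference was -0.64 ± 0.21 (adjusted p = 0.0194). Without the third PBS pull-down it was -0.16 (adjusted p = 0.691), and it was not called with DESeq2 (0.0604) or when only the compared groups were fitted (0.112). Folr2 had 37.3, 30.9 and 29.0 CPM against 26.7, 23.0, 14.3 and 18.4, no overlap, and a difference of -0.61 ± 0.26 that did not pass (adjusted p = 0.0822) but passed under 4 other settings.

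The other 5 did not pass in this comparison. Pf4 stood at 333, 336 and 289 CPM in PBS and at 376, 371, 373 and 304 in LPS mice (0.16 ± 0.15, adjusted p = 0.474). Lyve1 had 35.8, 26.9 and 53.5 CPM against 42.2, 43.5, 29.9 and 28.1 (-0.07 ± 0.25), and Mrc1 53.3, 36.1 and 55.8 against 45.8, 30.4, 35.3 and 58.3 (-0.20 ± 0.27). Cbr2 (-0.32 ± 0.19) and Ms4a7 (-0.50 ± 0.35) also had overlapping libraries. The early response genes, which summed to 602 to 692 CPM in the PBS pull-downs, summed to 1624 to 2074 in the LPS pull-downs (7 of 11 higher, 2 lower). Of all genes, 15.5% were higher and 11.0% lower.

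**Figure D5:**
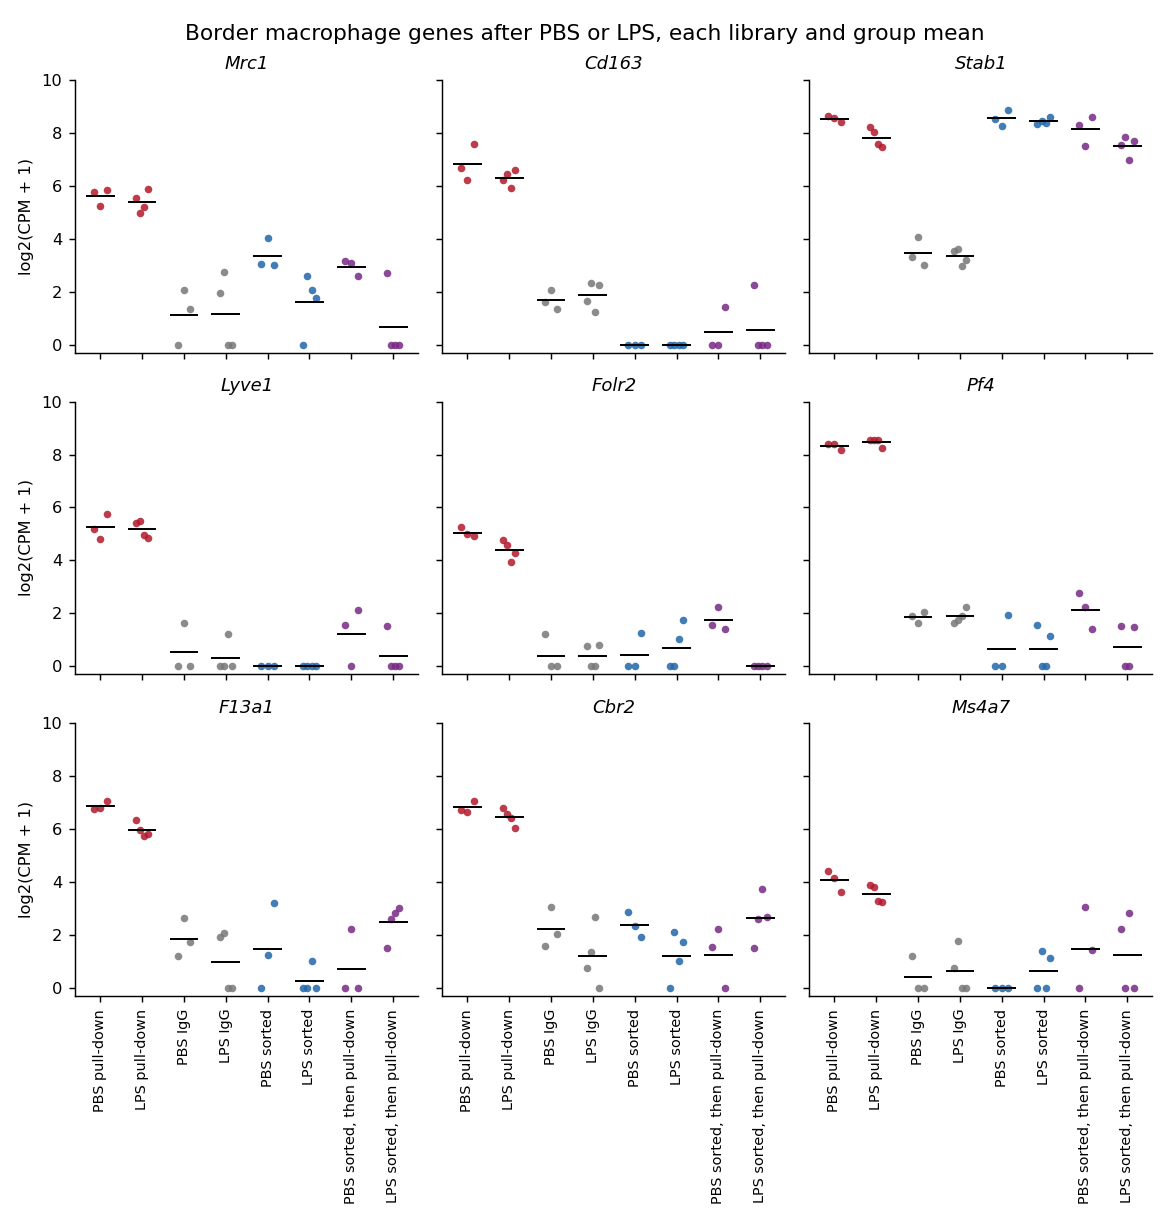
Level of the 9 genes in the LPS experiment as log2(CPM + 1) on the vertical axis, 1 point per library and a black line at each group mean, for pull-down, IgG1, sorted cells and pull-down from sorted cells in PBS and LPS mice. The LPS pull-downs of F13a1 and Stab1 lie below all 3 PBS pull-downs, while those of Pf4 and Lyve1 overlap them.

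In sorted cells Mrc1 alone was lower after LPS, from 7.33, 15.2 and 7.01 CPM to 0, 5.00, 3.15 and 2.38 (-1.75 ± 0.66, adjusted p = 0.0335, 17.6% of genes lower). This call rested on 24 reads in PBS and 8 in LPS mice. It held in 3 of 7 fits that left out 1 library and was lost without PBS library 2 (adjusted p = 0.196) and without LPS library 1, 3 or 4 (0.0777, 0.0657 and 0.077), and with only the compared groups Mrc1 did not pass the filter. In pull-down from sorted cells Stab1 alone was lower, at 186, 226, 123 and 204 CPM with LPS and 309, 181 and 381 with PBS (-0.66 ± 0.21, adjusted p = 0.012, 12.9% of genes). These groups overlapped, and the call was lost without the third PBS library (-0.49, adjusted p = 0.14). In total RNA of sorted cells Stab1 stood at 317, 350, 333 and 385 CPM after LPS, within the range of the PBS libraries. In IgG1 no member was called by edgeR (1.15% of genes in either direction), none had an unadjusted p under 0.05 and DESeq2 called 0.

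The difference between these LPS effects was tested as an interaction. Between sorted cells and pull-down, no member was called by edgeR (3.21% of genes were, in either direction), 2 had an unadjusted p under 0.05, which were Mrc1 (-1.55 ± 0.72) and Stab1 (0.56 ± 0.25), and DESeq2 called 0. Between pull-down and IgG1, no member was called (8.58% of genes), none had an unadjusted p under 0.05 and DESeq2 called 0. For Stab1 the difference between its LPS effects in sorted cells and in pull-down was thus not called (adjusted p = 0.256), but with the mouse number as a block it was (0.62, adjusted p = 0.0346).

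Other genes linked to border macrophages were split. Of 28 such genes, 22 were tested in the driver experiment. Of these, 17 were higher in pull-down than input (28.7% of all genes were) and 2 lower (35.5%), with a median of 2.73. Hpgd, which breaks down prostaglandins, was higher by 4.27 ± 0.31, the secreted matrix protein Tgfbi by 4.24 ± 0.39, the co-receptor Nrp1 by 2.91 ± 0.25 and the biliverdin reductase Blvrb by 2.80 ± 0.22. With the constitutive driver 16 of 22 were lower than with the inducible one (25.6% of all genes were) and none higher. The same 4 genes stood at -2.98, -2.94, -2.37 and -1.75. On sorting after digest, 11 of 19 were lower (41.1% of all genes were) and 7 higher. The share of all genes higher was 31.6%, not far from 7 of 19. The transcription factor Maf was higher by 2.57 ± 0.18 and the iron exporter Slc40a1 by 3.20 ± 0.22, while the lectin gene Cd209f went from 81.6 CPM in pull-down to 0.268. Without digest 12 were lower (40.9% of all genes were) and 7 higher (31.9% of all genes were). Among the latter were Maf (2.45 ± 0.18) and Slc40a1 (3.24 ± 0.22). Gas6, a ligand of TAM receptors, was lower by -2.04 ± 0.15. After LPS, 9 of 21 were lower in pull-down, where 11.0% of all genes were, and 4 were higher, near the 15.5% of all genes. The lower ones included Hpgd at -2.85 ± 0.24, Nrp1 at -2.07 ± 0.21 and Maf at -1.97 ± 0.25.

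Across the 21 group means, centred within each experiment, the pattern of 8 members followed the average of the 9 closely, with Pearson correlations from 0.885 (Mrc1) to 0.973 (Cbr2), and Stab1 followed it at 0.626. Each member is itself part of that average, which raises its correlation, and genes outside the list have no such part. Between single members, the median correlation was 0.502 for Stab1 and ran from 0.821 (Mrc1) to 0.952 (Pf4) for the other 8. These groups share libraries' depth and preparation, so the values are a description. Among 10519 genes, the 5 outside the list most like the average were Fcna (0.977), Cd209f (0.963), H2-Aa (0.948), Acp5 (0.943) and H2-Eb1 (0.942). Fcna, a soluble lectin of macrophages, had 44.96 CPM in the driver pull-down with tamoxifen and 0.546 in input. It stood at 51.8 CPM in the digest pull-down, with none in cells sorted after digest and 0.213 in cells sorted without. H2-Aa, an MHC class II chain, had 709 CPM in the digest pull-down against 24.2 and 24.6 in the sorted groups. Acp5, an acid phosphatase, had 23.8 CPM against 0 and 0.407.

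The DNA before the start sites of 3 of these genes is shown to set the gene whose level was kept on sorting, Stab1, beside Pf4 and Mrc1, whose levels were not. Each window has 300 bases, most of them before the annotated start, in RefSeq annotation of build GRCm38.p6, on the coding strand. Capitals mark the letters GAGGAA, the core of sites for the macrophage factor PU.1, or TGCTGA, the half-site of MAF factors, on either strand (TTCCTC and TCAGCA). The Mrc1 window is chr2:14229164-14229463, plus strand, that of Pf4 chr5:90772185-90772484, plus strand, and that of Stab1 chr14:31168592-31168891, minus strand.
Mrc1: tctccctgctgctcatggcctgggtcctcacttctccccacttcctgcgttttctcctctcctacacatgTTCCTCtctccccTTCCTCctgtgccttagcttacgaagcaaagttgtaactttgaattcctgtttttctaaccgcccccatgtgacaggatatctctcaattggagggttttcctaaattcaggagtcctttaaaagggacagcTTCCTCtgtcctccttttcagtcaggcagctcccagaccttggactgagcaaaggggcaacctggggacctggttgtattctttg
Pf4: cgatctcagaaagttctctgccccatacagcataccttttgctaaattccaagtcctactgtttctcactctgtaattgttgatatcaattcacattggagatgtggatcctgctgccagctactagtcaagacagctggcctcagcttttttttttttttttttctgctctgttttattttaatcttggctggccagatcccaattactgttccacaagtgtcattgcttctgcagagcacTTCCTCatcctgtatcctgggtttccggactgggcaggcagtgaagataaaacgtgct
Stab1: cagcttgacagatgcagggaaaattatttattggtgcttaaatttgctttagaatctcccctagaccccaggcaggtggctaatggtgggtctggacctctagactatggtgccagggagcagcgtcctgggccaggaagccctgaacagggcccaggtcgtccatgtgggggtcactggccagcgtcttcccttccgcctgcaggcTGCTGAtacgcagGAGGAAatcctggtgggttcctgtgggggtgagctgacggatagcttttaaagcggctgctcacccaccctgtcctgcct

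The Mrc1 window held 3 matches of the first motif, the Pf4 window 1, and the Stab1 window 1 of each. The matches of both motifs did not overlap. Of the 9 genes, 8 had windows in the table, 11 in all, and Lyve1 was not among them. GAGGAA was found in 7 of these 11 windows, in 6 of 8 genes (Cbr2, F13a1, Mrc1, Ms4a7, Pf4 and Stab1), and in 28.3% of all 32851 windows. TGCTGA was found in 4 of 11, in Cbr2, Folr2 and Stab1, and in 19.5% of all windows. A match is a description of the letters alone, and windows of genes that fell on sorting held both motifs too.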

How the data were processed

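The deposited files were 3 tables of raw read counts per gene over exons, 1 per experiment, with 67 library columns in all. Per the submitters' processing notes, bcl2fastq, HISAT version 0.1.5, HOMER and build mm9 were used. Annotation, strand setting and duplicate handling: not given in the sources used here. Per the labels' protocols, flash-frozen homogenate was incubated for 4 h with 125 µg of anti-HA or 1 µg of IgG1, and cells for sorting came from perfused brain on 40% Percoll.

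Each experiment was fitted with all its groups in edgeR version 4.0.16 (R 4.3.3): filterByExpr with a minimum count of 10, TMM scaling, and the robust quasi-likelihood test. Adjusted p-values are by Benjamini-Hochberg over all genes tested, with calls under 0.05. The genes tested numbered 11868 (driver), 11529 (digest) and 11444 (LPS). CPM are TMM-scaled, values after ± are standard errors of the log2 difference (SE), and levels are compared across samples, not between genes, because no transcript lengths were used. A fold against 0 reads is a bound, taken as if the group held 3, and 1 to 3 reads are given as a ratio with an exact 95% interval. Reads counted without molecular identifiers are not independent molecules, and no use of identifiers is stated, so both cover counting error only. The members, gene lists and comparisons were chosen with earlier results of these data known. For the lists of other genes, the text names up to 4 called genes with the smallest p, leaving out those with few reads, and the 5 genes most like the members were ranked by Pearson correlation over 21 group means.

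Groups follow the labels. Replicates share numbers across preparations. In the LPS experiment the titles run from 1 to 7 through all preparations and the design text puts sorting and pull-down in the same animal, so there the number was taken to mark the mouse between preparations. PBS and LPS mice are different animals, and in the other experiments nothing says what a number marks. The calls were made without a block, and the blocked value is given where the number pairs libraries and changes a call. Between sorted cells and pull-down each of the 7 sorted libraries deviated most like the pull-down of its own number (correlations from 0.0228 to 0.105). LPS pull-downs of replicates 1 to 3 also deviated most like the PBS pull-down of the same replicate (0.0215, 0.0897 and 0.0496), though from different mice. Pull-downs from sorted cells did not all match the sorted cells of their own number. These correlations thus cannot tell which libraries share a mouse. Alternatives were DESeq2 version 1.42.0 size factors and Wald test, total-count scaling, no filter, only the compared groups, the replicate number as a block and leaving out each library. The steps were tested on simulated counts. Promoter windows came from RefSeq. Some genes of the lists are not reported here.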

Additional observations from a re-analysis of the deposited data

Results flagged for a closer look

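The enrichment over input differed between kinds of driver mice by an interaction test in edgeR. With the constitutive driver it was lower than with tamoxifen for Cbr2 (-4.82), Cd163 (-6.12), F13a1 (-3.79), Mrc1 (-3.48), Pf4 (-2.97) and Stab1 (-4.78), as log2 differences. Without tamoxifen it was lower for Cbr2 (-3.27), Pf4 (-2.94), Stab1 (-3.34) and Folr2, whose fitted value of -10.69 rests on a pull-down group with no read.

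In the LPS pull-downs, 1 of the 4 libraries stood away from the others in its level of Pf4, at 303.6 CPM against 371, 373 and 376. The gap to the nearest library was 0.933 of the range, above Dixon's 95% critical value for 4 samples. Such a gap was looked for in 21 sets of 4 libraries with enough reads, and chance would give about 1 in 20.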

How the results depend on the processing

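The 9 calls of pull-down over input and over IgG1 with tamoxifen in the driver experiment, the 9 lower in the constitutive pull-down and the 8 lower after sorting in the digest experiment and in PBS mice moved by no library left out. Smaller counts moved. Leaving out 1 library gave 8 to 9 for LPS pull-down over IgG1 and for LPS sorted cells against pull-down, 7 to 8 for LPS pull-down from sorted cells against pull-down, 0 to 2 for IgG1 against input with tamoxifen, 1 to 4 for the constitutive pull-down over IgG1, 1 to 3 without tamoxifen over input and 1 to 2 over IgG1, 0 to 1 for digest against no digest, 0 to 1 (PBS) and 1 to 2 (LPS) for pull-down from sorted cells against sorted cells, 0 to 2 for LPS in sorted cells and 0 to 1 in pull-down from sorted cells. IgG1 against input gave 0 with no filter, 0 with DESeq2 and 0 with only the compared groups, where no member was tested. With only the compared groups, the constitutive driver over IgG1 gave 1, no tamoxifen over input 2, LPS pull-down from sorted cells against sorted cells 1 and LPS in sorted cells 0. Total-count scaling gave 1 for PBS pull-down from sorted cells against sorted cells and 5 for the lower enrichment over input with the constitutive driver. It gave 6 for pull-down without against with tamoxifen, 9 for sorting without digest against pull-down and 4 for LPS in pull-down. It moved the median of all genes in pull-down against input with tamoxifen from -0.28 to -0.75 and the share of calls that were higher from 44.7% to 28.8%, with all 9 genes still higher. That share moved from 51.8% to 28.1% for the constitutive driver over input, from 47.2% to 70.3% for pull-down without against with tamoxifen, and from 58.6% to 40.6% for LPS in pull-down. Stab1 in PBS sorted cells against pull-down was -0.471 (adjusted p = 0.0197) with no filter. In no comparison did every pair of libraries with the same number deviate together (correlation over 0.1), though in the digest experiment too each sorted library with a number from 1 to 3 correlated best with the pull-down of its number. With the replicate block the counts were 0 for IgG1 against input, 2 for no tamoxifen over input, 1 for both comparisons of pull-down from sorted cells with sorted cells, 0 for LPS in sorted cells, 0 for LPS in pull-down from sorted cells and 1 for the LPS interaction of sorted cells and pull-down (Stab1). The cause of these moves was not tested.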
